A study of Mus musculus with 10 samples.

Results

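The genes of polyamine synthesis and breakdown were described in NK (natural killer) cells of C57Bl/6 mice, and in bulk splenocytes. The set held 9 genes, chosen by their known function: Odc1, Srm, Sms, Amd1, Sat1, Smox, Oaz1, Oaz2 and Azin1. Their probe sets were taken from a table of 45101 probe sets by the gene symbol of the platform annotation. Of the 9 genes, 7 had probe sets that carry their symbol alone, 14 probe sets in all, among 18193 genes with such a probe set. The 3 probe sets that name Sms also name its pseudogene Sms-ps and were left out, as was 1 further probe set that names Oaz1 and Oaz1-ps. Amd1, the S-adenosylmethionine decarboxylase, is not analysed here because no probe set carries its symbol in the annotation used.

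Expression was measured on 1-colour Affymetrix MOE430_2 arrays, in which a probe set is a group of short probes read as a single signal. Splenic NK cells of wild type mice had been flow sorted as NK1.1+CD3- cells. IL-15 NK cells (3 arrays) were kept for 24 h with 100 ng/mL of recombinant mouse IL-15, a cytokine that activates NK cells, resting NK cells (3 arrays) were lysed directly after the sort, and bulk splenocytes (4 chips) were resting. The design text gives 3 biological replicates for each NK condition, whereas the 4 splenocyte chips are 2 biological samples on 2 chips each. NK cells cultured without IL-15 are not among these groups, so the effect of IL-15 and that of 24 h in culture cannot be told apart. NK RNA was amplified in 2 cycles and splenocyte RNA in 1, so cell population and amplification cannot be told apart in comparisons with splenocytes. The labelled cells carried their markers: 8 of 8 NK markers were above the floor on every array, and their summed signal was 373932.5 to 417332.7 on IL-15 NK arrays and 492426.9 to 610850.2 on resting NK arrays, against 52677.3 to 69606.1 on splenocyte chips. Signals passed the floor for 51.1% to 56.5% of probe sets on IL-15 NK arrays, 57.8% to 61.7% on resting NK arrays and 61.2% to 62.4% on splenocyte chips.

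Polyamines (putrescine, spermidine and spermine) are small cations that bind nucleic acids and are needed for translation and growth. Ornithine decarboxylase, encoded by Odc1, makes putrescine from ornithine, and spermidine synthase (Srm) and spermine synthase (Sms) add aminopropyl groups that come from decarboxylated S-adenosylmethionine. Antizymes (Oaz1, Oaz2) bind ornithine decarboxylase, lead it to the proteasome and limit polyamine uptake, while the antizyme inhibitor Azin1, a relative of ornithine decarboxylase without its activity, binds antizyme in its place. Spermidine/spermine acetyltransferase (Sat1) marks polyamines for export or oxidation, and spermine oxidase (Smox) turns spermine into spermidine. Both the antizymes and Sat1 are known to be controlled after transcription, which RNA signals do not show.

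After IL-15, the synthesis transcripts Odc1 and Srm and that of the antizyme inhibitor were higher, and that of the acetyltransferase was lower. The synthesis genes Sms and Amd1 were not analysed. Srm rose 11.2-fold, Odc1 rose 2.87-fold and Azin1 rose 2.15-fold in IL-15 NK over resting NK cells, while Sat1 was 1.67-fold lower (limma adjusted p = 1.4e-05, 0.014, 0.0021 and 0.036, n = 3 arrays per group). Oaz1, Oaz2 and Smox did not pass. All 7 genes were above the floor on all 10 arrays, so all 7 were tested. Thus 3 rose, 1 fell and 3 did not pass a limma adjusted p of 0.05, beside 26.3% called over the 11433 genes tested (14.2% higher and 12.1% lower). The median log2 difference over the 7 genes was 0.38, against -0.09 over all genes tested. The ranges of the 3 IL-15 NK and the 3 resting NK arrays did not overlap for 6 of the 7 genes, beside 42.2% of all genes tested.

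Here and below, the brightest probe set by mean log2 signal stands for its gene, signals under a floor of 179.85 units count as the floor, and folds are ratios of geometric means. Signals are relative within an array and not between genes, since every array had been scaled to a common mean.

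**Figure D1:**
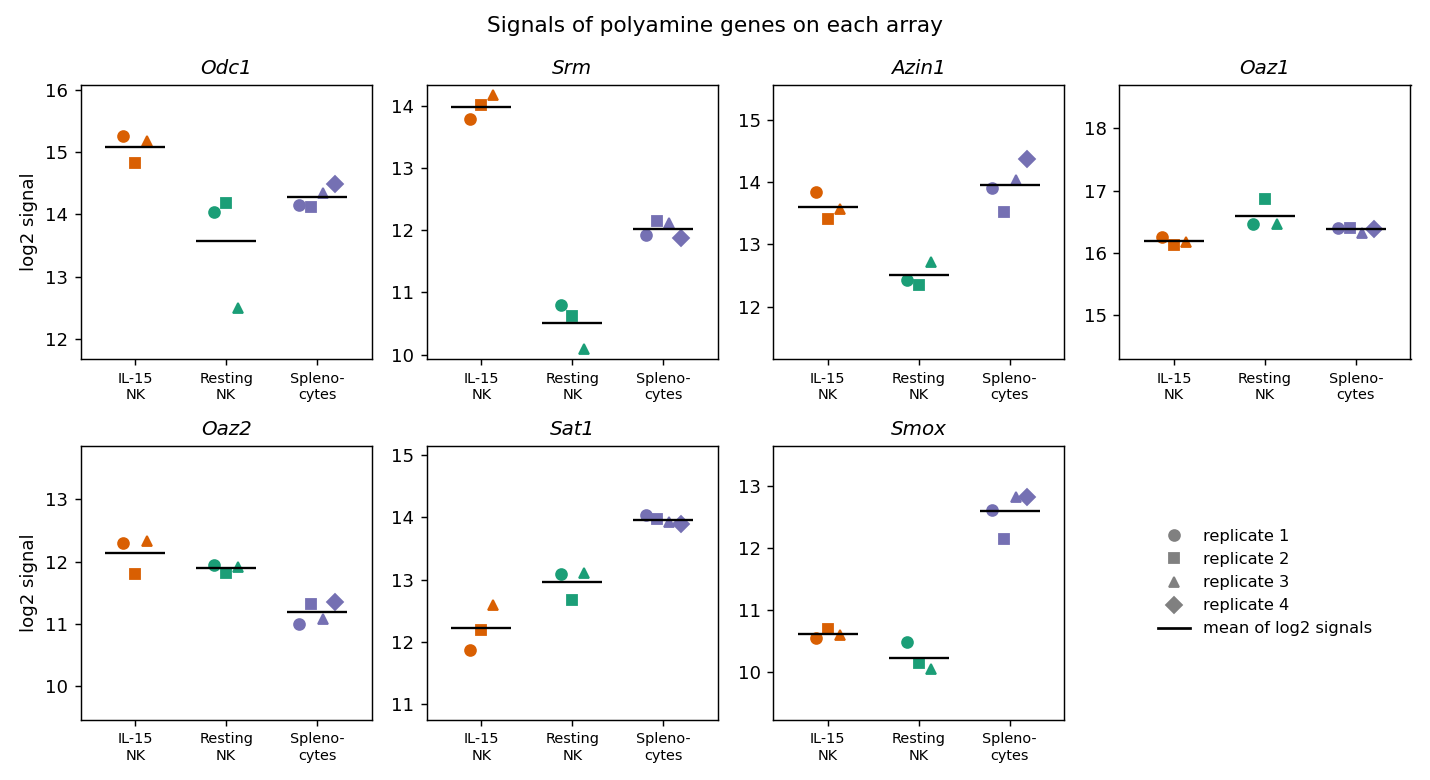
Log2 signal of the 7 genes on each array (vertical axes span the same log2 range in every panel), for IL-15 NK cells, resting NK cells and splenocytes from left to right. Each point is an array, shaped by replicate number, and the black line is the group's mean of log2 signals. Srm separates all 3 groups, and Odc1 on resting NK replicate 3 lies below every other array.

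Promoters were available from RefSeq (build GRCm38.p6) for 7 of the 9 genes, with 250 bases before and 50 after the annotated start, and not for Srm or Azin1. The sequences of a gene that rose (Odc1), a gene that fell (Sat1) and a gene that passed in none of the comparisons with the values as deposited (Oaz1) are shown 5′ to 3′. They lie at chr12:17544623-17544922 on the plus strand, chrX:155216400-155216699 on the minus strand and chr10:80826406-80826705 on the plus strand. Capitals mark matches on either strand to the E-box CACGTG, which MYC and its partner MAX bind, to the GC box GGGCGG and to the TATA box TATAAA.
Odc1: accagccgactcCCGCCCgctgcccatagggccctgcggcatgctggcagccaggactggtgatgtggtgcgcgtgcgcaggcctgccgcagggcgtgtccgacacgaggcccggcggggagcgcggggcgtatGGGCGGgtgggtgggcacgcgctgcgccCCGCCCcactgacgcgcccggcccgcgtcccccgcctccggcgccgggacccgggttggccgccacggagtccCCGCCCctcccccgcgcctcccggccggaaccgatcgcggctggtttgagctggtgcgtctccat
Sat1: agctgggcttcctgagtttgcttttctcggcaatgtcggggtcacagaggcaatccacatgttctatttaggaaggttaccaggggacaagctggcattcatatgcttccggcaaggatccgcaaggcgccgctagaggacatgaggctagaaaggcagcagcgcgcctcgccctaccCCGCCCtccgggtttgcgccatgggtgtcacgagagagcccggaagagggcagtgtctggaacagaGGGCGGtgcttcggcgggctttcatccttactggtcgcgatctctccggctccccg
Oaz1: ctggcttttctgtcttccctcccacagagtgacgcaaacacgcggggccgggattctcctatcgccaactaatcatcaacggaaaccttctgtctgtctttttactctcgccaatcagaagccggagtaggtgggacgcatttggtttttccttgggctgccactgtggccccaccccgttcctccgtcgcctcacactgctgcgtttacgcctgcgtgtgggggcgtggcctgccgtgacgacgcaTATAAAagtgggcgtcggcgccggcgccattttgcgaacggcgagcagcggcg
These windows hold 4 GC boxes in Odc1 and 2 in Sat1, and a single TATAAA in Oaz1, with no CACGTG in any of them. Sequence outside the windows, such as introns, was not searched, so a gene may hold CACGTG elsewhere. Of all 32851 promoter windows of this length, 35.7% hold the GC box, 13.6% TATAAA and 7.15% CACGTG. Among the windows found for the 7 genes, only 1 of the 2 of Sms, which is not measured here, holds CACGTG.

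Odc1, the first enzyme of the pathway, had signals of 39153.3, 29102.9 and 36943.1 on IL-15 NK arrays, against 16756.5, 18466.1 and 5767.6 on resting NK arrays. Every IL-15 NK array was above every resting NK array, and among the resting arrays replicate 3 was far below the other two. The mean log2 signal was 15.09 ± 0.23 in IL-15 NK and 13.57 ± 0.93 in resting NK cells (SD, n = 3 each), a log2 difference of 1.52 ± 0.38 SE. Without resting NK replicate 3 the log2 difference was 0.98 (limma adjusted p = 0.0069), and without IL-15 NK replicate 1 it was 1.44 and just missed the threshold (limma adjusted p = 0.052). With every gene tested, dim ones included, it did not pass either (limma adjusted p = 0.17).

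Both other probe sets of Odc1 also rose. The second-brightest probe set, whose ID suffix marks probes that may bind related transcripts, had signals of 26646.6, 17995.1 and 21733.9 on IL-15 NK arrays, against 13608.2, 15090.4 and 9601.6 on resting NK arrays, a log2 difference of 0.80 ± 0.22 SE (limma adjusted p = 0.025 over probe sets). The dimmest gave 2944, 2293.1 and 3721.2 against 1421.8, 1561.6 and 288 on the same arrays, a log2 difference of 1.77 ± 0.55 SE (limma adjusted p = 0.039 over probe sets). Resting NK replicate 3 was thus the lowest array of all 10 on each of the 3 probe sets. No 2 probe sets gave the same size of rise, with 2.87-fold for the brightest, 1.74-fold for the second and 3.40-fold for the dimmest.

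The resting arrays that were high in Odc1 also carried more B-cell marker signal. Of 9 B-cell markers, 1 to 4 were above the floor on IL-15 NK arrays, 4 to 9 on resting NK arrays and 9 on splenocyte chips. Their summed signal was 949.1 to 1634.8 on IL-15 NK arrays, 2045.3 to 25065.5 on resting NK arrays and 203609.1 to 246851.5 on splenocyte chips. Cd79a, Ms4a1, Fcrla and Cr2 did not reach the floor on any of the 3 IL-15 NK arrays. By resting replicate the sums were 25065.5, 24731.8 and 2045.3, so replicates 1 and 2, with more Odc1, held more of this signal than replicate 3. Against replicate 3 alone, a setting chosen after seeing the data in which the lone array is assumed to vary like the others, the log2 difference of Odc1 was 2.59 (limma adjusted p = 2.9e-05). That replicate was already the lowest of all arrays in Odc1, so the larger size follows from the choice of array. Macrophage and monocyte markers ran otherwise: 2 to 3 of 9 were above the floor on IL-15 NK arrays with sums of 1165.7 to 1863.5, and 7 of 9 on each resting NK array with sums of 6119.9, 19823.7 and 27064.9 in replicates 1, 2 and 3. Of 8 T-cell markers, 4 were above the floor on IL-15 NK arrays with sums of 6277.5 to 7910.7, and 4 to 6 on resting NK arrays with sums of 12455.6 to 18336.3. The brightest in both NK groups was Cd28, with a mean log2 signal of 12.37 in IL-15 NK and 13.44 in resting NK cells, against 13.09 in splenocytes. Cd3e, Cd4, Cd5 and Cd8b1 passed the floor on at most 1 of 3 arrays of either NK group. Cd3g and Cd8a, in contrast, passed it on 3 of 3 arrays of both NK groups. Cd3d passed it on 2 of 3 IL-15 NK arrays and 3 of 3 resting NK arrays. Of the 4 T-cell markers tested, 2 were lower in IL-15 NK cells and 2 did not pass. Among 6 tested B-cell markers 4 fell, and among 6 tested macrophage and monocyte markers 5 fell. The others did not pass, and 0 markers of these 3 lists rose. Over all 11433 genes tested between the NK groups, 12.1% were lower and 14.2% higher. The part of these other cells in the differences between the NK groups was not tested. Of 8 markers of unrelated tissues, 2 to 6 were above the floor on IL-15 NK arrays, 3 to 6 on resting NK arrays and 2 to 6 on splenocyte chips. A marker above the floor therefore does not by itself show that its cell type was present. In bulk samples such as these, fewer cells of a type and less RNA per cell cannot be told apart.

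**Figure D2:**
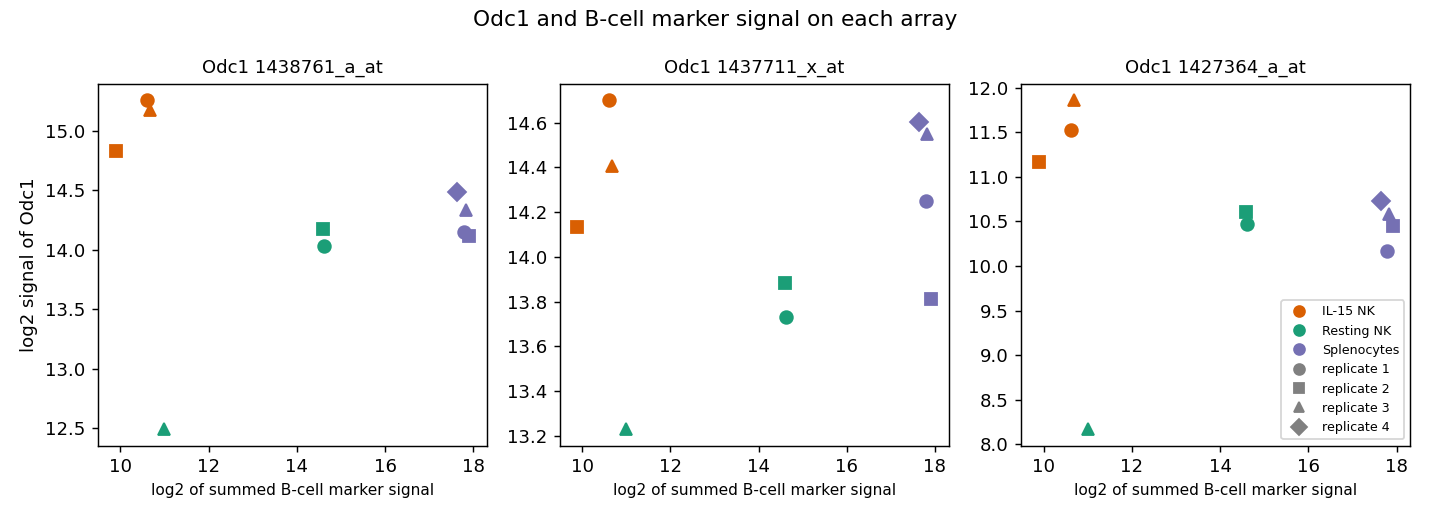
Log2 signal of the 3 Odc1 probe sets (vertical) against the log2 of the summed signal of 9 B-cell markers (horizontal) on each of the 10 arrays, coloured by group and shaped by replicate. Resting NK replicate 3 lies at the low end of both axes among the resting arrays, while the 3 IL-15 NK arrays combine the lowest B-cell signal with high Odc1.

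Srm, which makes spermidine from putrescine, showed the widest separation of the 7 genes. Its single probe set gave 14063.3, 16440.9 and 18353.7 on IL-15 NK arrays, against 1771.7, 1570 and 1095.4 on resting NK arrays. The lowest IL-15 NK array lay far above the highest resting NK array. The mean log2 signal was 13.98 ± 0.19 in IL-15 NK and 10.50 ± 0.36 in resting NK cells (SD, n = 3 each), a log2 difference of 3.48 ± 0.22 SE. Over all 16 alternatives the log2 difference stayed between 3.28 and 3.89, with limma adjusted p between 4.9e-07 and 0.0061. As with Odc1, resting NK replicate 3 gave the lowest signal.

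Azin1, the antizyme inhibitor, had signals of 14727.5, 10835.5 and 12143.1 on IL-15 NK arrays, against 5536, 5237.3 and 6725 on resting NK arrays. The groups did not overlap, and here resting replicate 3 was the highest of its group. The mean log2 signal was 13.61 ± 0.22 in IL-15 NK and 12.50 ± 0.19 in resting NK cells (SD, n = 3 each), a log2 difference of 1.10 ± 0.19 SE that passed in all 16 alternatives. The second probe set gave 7488, 6256.1 and 7199.4 against 4854.4, 4849 and 5064 on the same arrays and did not pass over probe sets, with a log2 difference of 0.50 (limma adjusted p = 0.062). The third was under the floor on all resting NK arrays and at least 1.94-fold higher after IL-15, which did not pass (limma adjusted p = 0.092 over probe sets). Its IL-15 NK signals were 614.9, 193.3 and 357.3, the second of these close to the floor.

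Neither antizyme transcript passed the threshold in this comparison. Oaz1, the main antizyme, gave 78239.4, 71893 and 73749.3 on IL-15 NK arrays, against 90760.7, 119179.5 and 90308.3 on resting NK arrays. All IL-15 NK arrays lay below all resting NK arrays, yet the log2 difference of -0.41 ± 0.18 SE did not pass (limma adjusted p = 0.13; 95% interval of the difference -0.82 to -0.002). With quantile normalization the difference shrank to -0.11 (limma adjusted p = 0.66). The brightest probe sets of these arrays reached 128232.8 to 153822.4 on IL-15 NK arrays and 177504.1 to 270300.9 on resting NK arrays, so Oaz1 lay in the upper part of the scale, and compression there was not tested.

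Oaz2, a second antizyme, gave 5034.6, 3585.1 and 5141.1 on IL-15 NK arrays, against 3944.9, 3621.4 and 3862.9 on resting NK arrays. The groups overlapped, and the log2 difference of 0.25 ± 0.20 SE did not pass (limma adjusted p = 0.40; 95% interval -0.20 to 0.70). The mean over its probe sets gave -0.06 (limma adjusted p = 0.86). Its other probe sets were dim and pointed to different sides, with log2 differences of 0.35 for the second-brightest and -0.77 for the dimmest, and neither passed over probe sets (limma adjusted p = 0.52 and 0.092).

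Sat1, the acetyltransferase of the breakdown arm, gave 3741.4, 4651.5 and 6206.4 on IL-15 NK arrays, against 8682.7, 6543.8 and 8796.6 on resting NK arrays. The groups did not overlap, though IL-15 NK replicate 3 came close to resting NK replicate 2. The mean log2 signal was 12.22 ± 0.37 in IL-15 NK and 12.95 ± 0.24 in resting NK cells (SD, n = 3 each), a log2 difference of -0.74 ± 0.23 SE. The macrophage and monocyte signal given above was likewise lower in IL-15 NK cells, and its part in the difference of Sat1 was not tested. The sign held in all 16 alternatives, but 7 of them ended the call. Without IL-15 NK replicate 1 or 2 the limma adjusted p was 0.13 and 0.089, without resting NK replicate 1 or 3 it was 0.11 and 0.092, with resting NK replicate 3 as the only resting array it was 0.058, with every gene tested 0.15 and with no intensity trend 0.064.

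Smox, the spermine oxidase, gave 1510.2, 1655.4 and 1548.1 on IL-15 NK arrays, against 1444.5, 1136.4 and 1065 on resting NK arrays with its brighter probe set. The groups stood apart by a small margin, and the log2 difference of 0.38 ± 0.24 SE did not pass (limma adjusted p = 0.28; 95% interval -0.16 to 0.92). The dimmer probe set gave 319.5, 262.9 and 284.5 on IL-15 NK arrays, against 1100.4, 794.6 and 417.7 on resting NK arrays. It was 2.48-fold lower in IL-15 NK cells, with a log2 difference of -1.31 ± 0.37 SE (limma adjusted p = 0.026 over probe sets). The probe sets of Smox therefore disagreed in sign, and their mean gave a log2 difference of -0.47 that did not pass (limma adjusted p = 0.21).

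Over the 14 probe sets taken singly, 5 rose, 2 fell and 7 did not pass, beside 23.9% called over the 20980 probe sets tested (12.2% higher and 11.6% lower). The 5 that rose were the 3 of Odc1, that of Srm and 1 of 3 of Azin1. The ratio of 3-prime to 5-prime signal of the Gapdh control, a sign of RNA or labelling quality, was 3.75, 2.9 and 3.81 on IL-15 NK arrays, against 6.13, 9.54 and 5.88 on resting NK arrays, and its part in these differences was not tested.

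**Figure D3:**
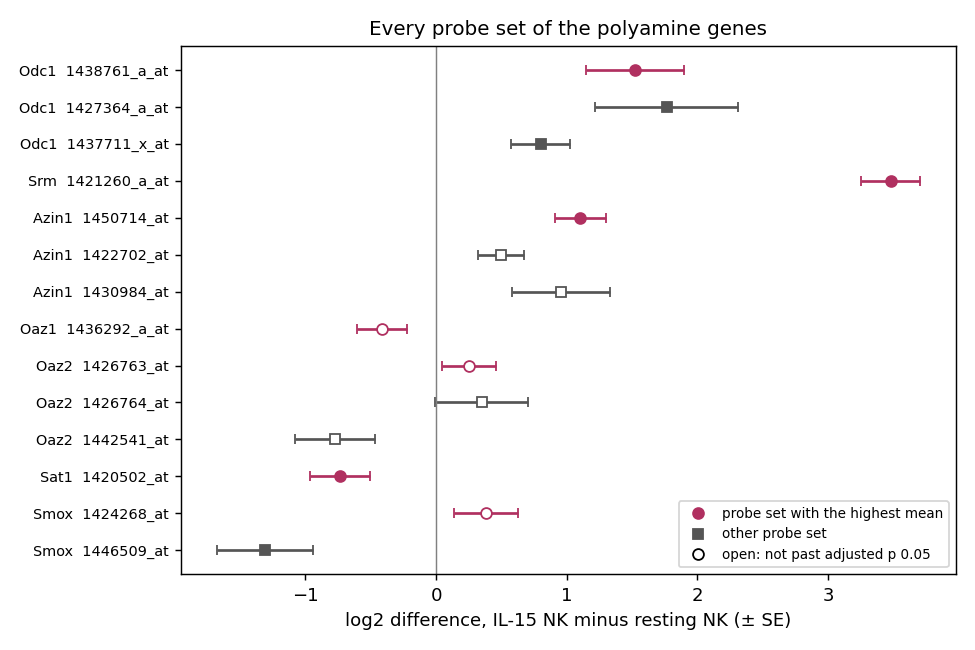
Log2 difference, IL-15 NK minus resting NK cells (horizontal, with SE), for each of the 14 probe sets. Circles are the probe sets that represent a gene and squares the others, filled where the limma adjusted p over probe sets was under 0.05. The 3 probe sets of Odc1 lie to the right of 0, and those of Smox lie on opposite sides.

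Resting NK cells held less of most of these transcripts than bulk splenocytes, a mixture rich in B and T cells. Smox was 5.14-fold lower, Srm 2.85-fold lower, Azin1 2.74-fold lower and Sat1 2.00-fold lower in resting NK cells, while Oaz2 was 1.64-fold higher (limma adjusted p = 8.2e-05, 0.0012, 0.00078, 0.0094 and 0.023, n = 3 arrays against 4 chips of 2 samples). Thus 1 gene was higher, 4 were lower and 2 did not pass, beside 38.6% called over the 12938 genes tested (17.1% higher and 21.5% lower). Ranges did not overlap for 6 of the 7 genes, beside 49.7% of the genes tested. The median log2 difference was -1.0 over the 7 genes and -0.06 over all tested. Markers of the other spleen cells moved in the same direction: 9 of 9 B-cell, 9 of 9 macrophage and monocyte, 5 of 5 neutrophil, 3 of 3 tested erythroid and 6 of 8 T-cell markers were lower in resting NK cells than in splenocytes. The Gapdh 3-prime to 5-prime ratio was 5.88 to 9.54 on resting NK arrays and 1 to 1.39 on splenocyte chips. The part of these in the differences was not tested.

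Splenocyte signals of Smox were 6238.3, 4505.1, 7209.9 and 7248.8, and those of Sat1 were 16718.6, 16063.5, 15588.8 and 15152, on chips 1 to 4. With these brightest probe sets, every splenocyte chip was thus above every NK array in both genes of the breakdown arm. Srm gave 3882.9, 4517.4, 4413.9 and 3754.6 on the splenocyte chips, and Azin1 gave 15294.2, 11691.2, 16858.1 and 21121.4. For Srm this lay between the IL-15 NK and the resting NK arrays. Odc1, with 18145.9, 17735.9, 20650.8 and 22887.9 on splenocyte chips, overlapped the resting NK arrays, and the log2 difference of -0.70 ± 0.45 SE did not pass (limma adjusted p = 0.26). Against resting NK replicate 3 alone it was -1.78 and passed (limma adjusted p = 0.0034), and without that replicate it was -0.17 (limma adjusted p = 0.55). With resting NK replicate 3 alone the difference of Sat1 no longer passed (limma adjusted p = 0.082).

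The second Smox probe set did not bear the same difference in resting NK cells, with a log2 difference of 0.43 from splenocytes (limma adjusted p = 0.44 over probe sets). All 3 probe sets of Azin1 were lower in resting NK cells than in splenocytes, and the dimmest of them, under the floor on every resting NK array and at 2223.1, 2039.4, 3108.5 and 1578.6 on splenocyte chips, was at least 12.1-fold lower (limma adjusted p = 0.00044 over probe sets). The probe sets of Oaz2 disagreed. The brighter gave 2037.2, 2547, 2159.6 and 2622.1 on splenocyte chips, below every NK array, whereas the second gave 646.5, 358.7 and 286.3 on resting NK arrays, against 1196.2, 1423.7, 1515.4 and 1333.6 on splenocyte chips, and was 3.36-fold lower (limma adjusted p = 0.0065 over probe sets). With the mean over its probe sets the log2 difference of Oaz2 turned to -0.27 (limma adjusted p = 0.34), and it did not pass without resting NK replicate 1 or with resting NK replicate 3 alone (limma adjusted p = 0.058 and 0.11). Over the 14 probe sets, 1 was higher, 7 were lower and 6 did not pass, beside 38.1% called (15% higher and 23.1% lower).

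IL-15 NK cells also differed from splenocytes: Srm was 3.92-fold higher and Oaz2 1.95-fold higher, while Smox was 3.94-fold lower and Sat1 3.33-fold lower (limma adjusted p = 0.00025, 0.0052, 0.00019 and 0.00054, n = 3 arrays against 4 chips of 2 samples). These are 2 higher and 2 lower genes of 7, with 3 that did not pass, beside 44.3% called over the 12465 genes tested (20.8% higher and 23.5% lower). Ranges did not overlap for 6 of the 7 genes, beside 57.6% of those tested. Singly, 2 of the 14 probe sets were higher, 5 were lower and 7 did not pass, beside 42.4% called (17.1% higher and 25.2% lower). Here too 9 of 9 B-cell, 9 of 9 macrophage and monocyte, 5 of 5 neutrophil, 3 of 3 tested erythroid and 6 of 8 T-cell markers were lower in IL-15 NK cells. The Gapdh 3-prime to 5-prime ratio was 2.9 to 3.81 on IL-15 NK arrays and 1 to 1.39 on splenocyte chips, and the part of these in the differences was not tested. This comparison shares its splenocyte chips with the comparison of resting NK cells and its NK arrays with the first, so the 3 are not independent. The higher value of Oaz2 again rests on its brightest probe set, since the mean over its probe sets gave a log2 difference of -0.32 (limma adjusted p = 0.23). The dimmer probe set of Smox was also lower in IL-15 NK cells but did not pass (log2 difference -0.88, limma adjusted p = 0.105 over probe sets). Odc1 was 1.76-fold higher on average, with every IL-15 NK array above every splenocyte chip, but did not pass (log2 difference 0.82 ± 0.45 SE, limma adjusted p = 0.18). It passed when the 4 chips counted as 4 samples (limma adjusted p = 0.041) or when resting NK arrays were left out of the fit (limma adjusted p = 0.011). These values are those of its brightest probe set. The second-brightest Odc1 probe set overlapped between the groups, with a log2 difference of 0.11 (limma adjusted p = 0.76 over probe sets). The dimmest stood apart with 1.03 but did not pass (limma adjusted p = 0.245 over probe sets). Azin1 overlapped between the groups, with a log2 difference of -0.35 that did not pass (limma adjusted p = 0.21; 95% interval -0.82 to 0.13), whereas its mean over probe sets gave -1.24 and passed (limma adjusted p = 0.0031).

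Oaz1 gave close values on the splenocyte chips, at 86894.2, 86574.2, 82024.5 and 85529.9, between the IL-15 NK and the resting NK arrays. Its log2 difference was 0.22 ± 0.18 SE for resting NK cells and -0.19 ± 0.18 SE for IL-15 NK cells against splenocytes, and neither passed (limma adjusted p = 0.37 and 0.41). Quantile normalization gave 0.54 and 0.43 and made both pass (limma adjusted p = 0.011 and 0.028), so the sign of the second turned. That scaling moved the median over all genes tested by 0.11 and 0.21 in these comparisons.

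By group means, Odc1 and Srm ran IL-15 NK over splenocytes over resting NK, Azin1 and Smox splenocytes over IL-15 NK over resting NK, and Sat1 splenocytes over resting NK over IL-15 NK. Oaz2 ran IL-15 NK over resting NK over splenocytes, and Oaz1 resting NK over splenocytes over IL-15 NK. Neighbours that did not differ past the threshold were splenocytes and both NK groups for Odc1, splenocytes and IL-15 NK for Azin1, both NK groups for Smox and Oaz2, and all 3 groups for Oaz1. For Srm and Sat1 each neighbour in the order differed.

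**Figure D4:**
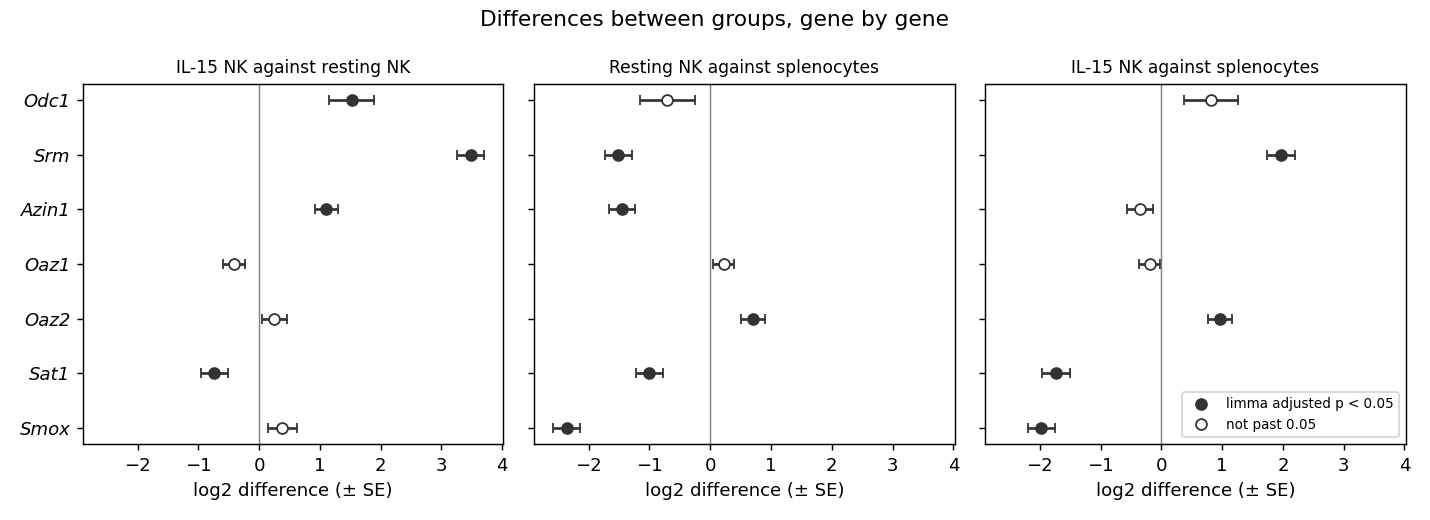
Log2 difference with its SE for the 7 genes. From the left, the comparisons are IL-15 NK with resting NK cells, resting NK cells with splenocytes and IL-15 NK cells with splenocytes, first-named group minus the second. Filled points passed a limma adjusted p of 0.05. Srm lies right of 0 in both comparisons led by IL-15 NK cells, and Sat1 lies left of 0 in all 3.

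Other genes of the pathway were read from lists. Of 6 genes of S-adenosylmethionine supply and methylthioadenosine salvage, which recovers methionine from the by-product of Srm and Sms, 3 rose, none fell and 3 did not pass in IL-15 NK over resting NK cells, with a median log2 difference of 0.87, beside 26.3% called over all genes tested (14.2% higher and 12.1% lower) and their median of -0.09. Mtap, the phosphorylase that opens this salvage, rose by 1.46 ± 0.19 SE, Enoph1 by 1.15 ± 0.22 SE and Mri1 by 1.04 ± 0.27 SE in log2 units (limma adjusted p = 0.00043, 0.0038 and 0.016). Mri1 did not pass without IL-15 NK replicate 2, without resting NK replicate 1 or with every gene tested. These 3 genes belong to the salvage. Mat2b, the only measured gene of the supply itself, had a log2 difference of 0.03 (limma adjusted p = 0.91). Mat2a, also listed, had no probe set that carries its symbol alone. The 2 tested genes of ornithine and arginine supply were Slc7a1, a carrier of cationic amino acids, which rose by 1.11 (limma adjusted p = 0.0015), and Oat, ornithine aminotransferase, with a log2 difference of 0.44 short of the threshold (limma adjusted p = 0.28). The arginases Arg1 and Arg2, which make ornithine, were not tested in this comparison. For either, 0 of 3 IL-15 NK arrays reached the floor, and 2 and 0 of 3 resting NK arrays did. Against splenocytes, Arg2 was at least 1.80-fold lower in resting NK and in IL-15 NK cells (limma adjusted p = 0.0011 and 0.00094), and Arg1 was not tested.

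Of 4 genes of hypusine formation, in which spermidine modifies the translation factor eIF5A, 2 rose and 2 did not pass, beside the same 26.3% called, and the median log2 difference was 0.12. Dohh, the hydroxylase of the last step, rose by 1.17 ± 0.25 SE and Eif5a by 0.60 ± 0.18 SE in log2 units (limma adjusted p = 0.0067 and 0.033). The 2 that did not pass pointed down: Eif5a2 with a log2 difference of -0.65 and Dhps with -0.36 (limma adjusted p = 0.134 and 0.335). Dohh did not pass as the mean over its probe sets (limma adjusted p = 0.23), and 5 of 16 alternatives ended the call for Eif5a, whereas the mean over its probe sets raised its log2 difference to 1.31 (limma adjusted p = 0.0025). Of 3 tested genes of other oxidation, acetylation and transport, 1 rose and 1 fell: the lysosomal polyamine exporter Atp13a2 fell, with a log2 difference of -1.17, and Atp13a3, a related transporter, rose, with 0.90 (limma adjusted p = 0.022 and 0.021), each losing its call in 5 of 16 alternatives. Among the other antizyme and agmatine genes only Azin2 was tested, with a log2 difference of -0.33 (limma adjusted p = 0.51).

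Odc1 and Srm are known targets of the transcription factor MYC, and the MYC network was therefore listed. Of its 7 genes, 1 rose, 3 fell and 3 did not pass, again beside 14.2% higher and 12.1% lower over all genes tested. Myc rose by 1.41 ± 0.24 SE on the log2 scale, while Mxd4, Mxd1 and Mxi1, which encode repressors that compete with MYC for MAX, fell, with log2 differences of -1.76, -1.70 and -1.08 (limma adjusted p = 0.002, 0.0041, 0.0014 and 0.013). Mxd4 did not pass as the mean over its probe sets or with every gene tested, Mxd1 passed with a smaller log2 difference of -0.91 as the mean over its probe sets (limma adjusted p = 0.0083), and Mxi1 did not pass without IL-15 NK replicate 3 or with resting NK replicate 3 as the only resting array. The 3 that did not pass were Mnt, Max and Mxd3, with log2 differences of -0.44, 0.37 and 0.35 (limma adjusted p = 0.18, 0.39 and 0.44). Mxd3 thus pointed the other way from Mxd4, Mxd1 and Mxi1. The median of this list was -0.44, against -0.09 over all genes tested. Of the same 7 genes, 2 were higher and 3 lower in resting NK cells than in splenocytes, and 0 were higher and 3 lower in IL-15 NK cells than in splenocytes. In resting NK cells Mxd4 and Mxd1 were higher, and Max, Mxi1 and Myc were lower. In IL-15 NK cells Mxi1, Max and Mnt were lower, and Myc did not pass (log2 difference -0.47, limma adjusted p = 0.13). The part of the MYC network in the differences of Odc1 and Srm was not tested. Of the 6 genes of S-adenosylmethionine supply and salvage, 1 was higher and 3 were lower in resting NK cells than in splenocytes. In IL-15 NK cells 2 of them were higher and 0 lower than in splenocytes. Of the 4 hypusine genes, 1 was higher in resting NK cells and 3 were higher in IL-15 NK cells than in splenocytes, with 0 lower in either. Over all genes tested, 17.1% were higher and 21.5% lower in resting NK cells, and 20.8% were higher and 23.5% lower in IL-15 NK cells, each against splenocytes.

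**Figure D5:**
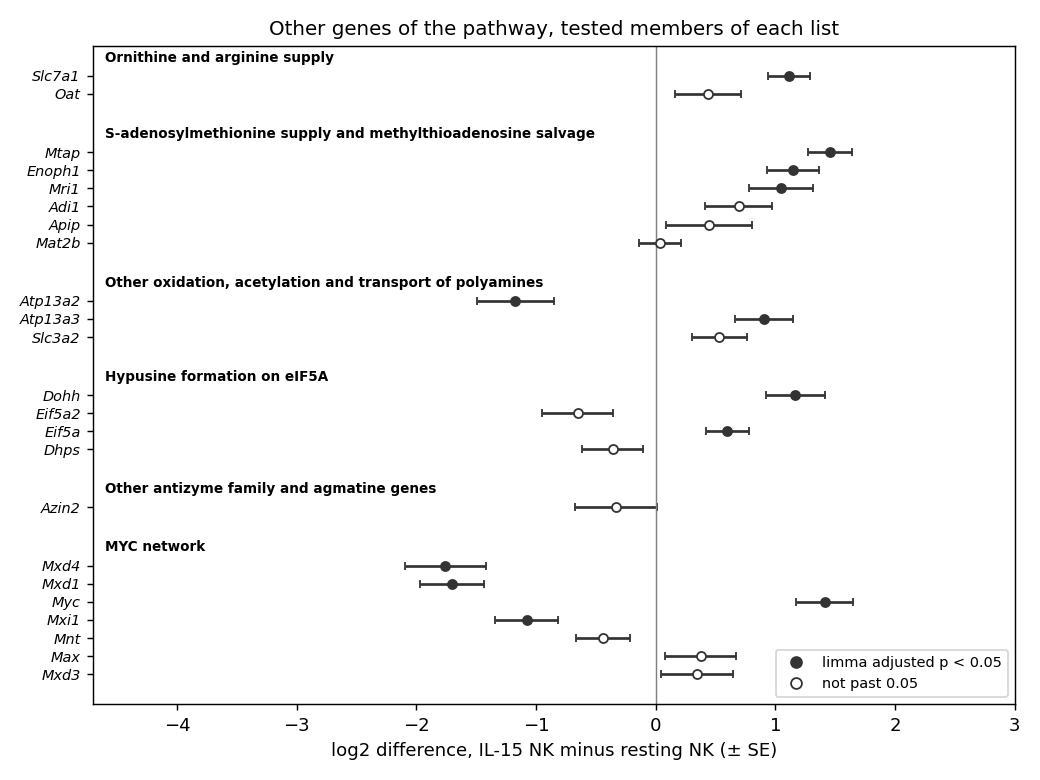
Log2 difference, IL-15 NK minus resting NK cells (horizontal, with SE), for the tested members of the 6 lists of other pathway genes. Filled points passed a limma adjusted p of 0.05. In the list of S-adenosylmethionine supply and salvage all 6 points lie right of 0, but 3 did not pass and Mat2b lies at 0.03. In the MYC network Myc and its competitors Mxd4, Mxd1 and Mxi1 lie on opposite sides, while Mxd3 lies on the side of Myc and did not pass.

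Profiles most like those of Odc1 and Sat1 were sought among 8466 genes above the floor on all 10 arrays, by the root-mean-square difference of log2 signals centred on each gene's mean over the arrays. The nearest to Odc1 were Ntmt1, Heatr3 and Pmm1, at 0.25, 0.27 and 0.28 log2 units, against a median of 0.88 over the genes compared. The nearest to Sat1 were Abhd6, Snap29 and Serpini1, at 0.17, 0.18 and 0.19, against a median of 0.90. Among these, Ntmt1 differed by 1.32 and Abhd6 by -0.57 on the log2 scale between the means of IL-15 NK and resting NK cells. These points share the 10 arrays and their scaling, and the likeness is a description.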

How the data were processed

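The values deposited by the authors are linear signal intensities, with GCOS 1.4 named per the submitters' processing notes. How probes were summarised is not given in the sources used here. After trimming 2% at each end the array means ran from 1500.008 to 1500.01, so arrays were compared as deposited, and a change in total RNA per cell is not visible.

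Signals under the floor (the median over arrays of the 40th percentile) were raised to it before taking log2. A single gene symbol belonged to 34945 probe sets in the platform annotation, several to 932 and none to 9160, beside 64 controls. Of the first, 34741 matched the RefSeq table by gene ID and 0 symbols changed. Genes that exceeded the floor on 3 or more arrays of a comparison entered limma 3.58.1 in R 4.3.3 (lmFit, eBayes with a trend on intensity). Tests were 2-sided and Benjamini-Hochberg adjusted over all of them, with a threshold of 0.05. Splenocyte chips were paired in all 3 ways, each pair was averaged, and each gene took its highest p over the 3 fits, with 1 variance over the 3 groups. The fits were tested on simulated data. Members and lists were chosen with earlier results of these data known. Named were all members with a probe set of their own, up to 4 genes of each pathway list past the threshold or its 2 brightest tested genes, and the 3 nearest profiles of Odc1 and Sat1. Alternatives changed the floor, filter, scaling, probe set, variance prior, replicate block, chips or arrays in the fit. No 2 arrays were identical, and the number of arrays limits the precision.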

Additional observations from a re-analysis of the deposited data

How the results depend on the processing

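Over 21 values (7 genes in 3 comparisons) and 343 recomputed values, 321 kept their sign and their side of the threshold. With the sign kept, 12 no longer passed and 5 newly passed. The other 5 turned in sign and are counted apart, whether or not they also crossed the threshold. Under quantile normalization, which moved the median over all genes tested by 0.205 there, Oaz1 turned in IL-15 NK cells over splenocytes (0.43). With the mean over probe sets, which averages probe sets that disagree, Oaz2 turned in resting NK (-0.265) and in IL-15 NK cells (-0.323) over splenocytes, and Smox (-0.465) and Oaz2 (-0.058) turned in IL-15 NK over resting NK cells, where neither passed in either setting. Among the named pathway genes Azin2, which did not pass, turned with resting NK replicate 3 as the only resting array (0.266), and the cause was not tested. In the comparison of both NK groups 4 of the 7 genes passed, and 2 with every gene tested, where 1646 genes passed in place of 3003. Leaving out 1 array gave 2 to 4 genes there (2 without IL-15 NK replicate 1) and 1963 to 3241 genes over all (1963 without IL-15 NK replicate 3), 4 to 5 genes and 4441 to 5188 over all in resting NK against splenocytes, and 4 genes and 4616 to 5221 over all in IL-15 NK against splenocytes. With every probe set tested singly, 5004, 9129 and 9797 probe sets passed in the 3 comparisons, in place of 3003, 4993 and 5524 genes; more features are tested there.

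The replicate numbers of the NK arrays were not taken as pairs: deviations from the group means correlated at 0.103, 0.281 and 0.066 for numbers 1, 2 and 3 over 11433 genes, and IL-15 NK replicate 1 correlated best with resting NK replicate 3 (0.154). With the replicate block 4 of the 7 genes passed, with limma adjusted p of 0.00196 for Odc1 and 0.0158 for Sat1. Over all genes 3421 passed with the block. Signals near the floor, as in the dimmest probe sets of Azin1, Oaz2 and Smox, and 3 arrays a group limit what could be seen.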
